A study of Mus musculus with 4 samples.

Results

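The genes described here are 9 members of the YAP-TEAD pathway: the co-activators Yap1 and Wwtr1, the transcription factor Tead1, the regulators Lats2, Amotl2 and Ajuba, and the target genes Ankrd1, Thbs1 and Axl. They were chosen by name, with earlier results of these data known, and matched by their mouse gene symbols to the 55536 Ensembl genes of the count tables. Each symbol had 1 gene ID, and all 9 genes had reads in all 4 libraries.

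The series compared RNA of cultured ear fibroblasts from C57BL/6 mice in 2 states of the C/D box small nucleolar RNA (snoRNA) AF357425, both in whole-cell RNA and in RNA recovered with an antibody against fibrillarin, the methyltransferase that C/D box snoRNAs guide. Its title ties the snoRNA to pre-mRNA processing, ribose methylation, integrin signalling and fibroblast function. The groups were the AF357425-High pulldown, the AF357425-Low pulldown, AF357425-High whole-cell RNA and AF357425-Low whole-cell RNA, with 1 library each. The labels tie High to overexpression and Low to inhibition of AF357425. The treatment text instead names gapmers, antisense oligonucleotides, against AF357425 or a scrambled control, and nothing in the labels says which of these stands behind which state. Cells of all 4 groups were held for 48 h in KN93, which blocks the calmodulin-activated kinase CaMKII, to bring their cell cycles into step, and 24 h of transfection came after that. Whether libraries share a culture or a mouse is also not given. With 1 library in each group no test between groups was possible, and every interval below is a 95% interval for counting error only.

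Reads assigned to genes came to 25857770 in the pulldown of AF357425-High, 27832061 in that of AF357425-Low, and to 22082565 and 21693030 in whole-cell RNA of AF357425-High and of AF357425-Low. Mitochondrial ribosomal RNA took 63.4% and 59.8% of the pulldown reads but 0.0926% and 0.0583% of the whole-cell reads. Fragments counted as ambiguous, those overlapping more than 1 gene, made up 9.38% and 8.54% of the pulldown fragments, against 1.05% and 1.09% in whole-cell RNA. AF357425 itself had 0 reads in all 4 libraries, which, at 3 reads a library, allows up to 0.116 and 0.108 CPM in the pulldowns and 0.136 and 0.138 CPM in whole-cell RNA, so the states could not be checked by their target. All 8 fibroblast markers had reads in every library and summed to 2692 and 3128 CPM (reads of a gene per 1000000 gene-assigned reads) in the AF357425-High and AF357425-Low pulldowns and to 9228 and 10495 CPM in whole-cell RNA. Markers of smooth muscle and myofibroblasts, summed over 4 genes, had 234 and 243 CPM in the pulldowns and 1311 and 1434 CPM in whole-cell RNA. Those of chondrocytes, 5 genes with Matn1 at 0 in all libraries, had 111 CPM in AF357425-High and 136 CPM in AF357425-Low in the pulldown, and 262 CPM in AF357425-High and 185 CPM in AF357425-Low in whole-cell RNA. The part of these cell types in the results was not tested. Endothelial markers summed to at most 8.07 CPM, leukocyte markers to at most 5.71 CPM and skeletal muscle markers to at most 0.323 CPM. Keratinocyte markers summed to at most 0.645 CPM and mast cell markers to at most 0.0461 CPM in any library. In bulk RNA, fewer cells of a type and less RNA per cell cannot be told apart.

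YAP1 and WWTR1 (also called TAZ) are co-activators without a DNA-binding domain of their own, and they act on genes by binding TEAD transcription factors. The Hippo pathway restrains them: the kinases of the MST and LATS families phosphorylate them, which keeps them in the cytoplasm or marks them for breakdown. Cell spreading, stiff matrix and cytoskeletal tension release this brake, and in fibroblasts YAP and TAZ are known to promote the expression of matrix and contractile genes. Lats2 and Amotl2 encode inhibitors that are themselves switched on by YAP and TEAD, which closes a negative feedback loop. Ajuba encodes a LIM protein that holds LATS kinases in check at cell junctions.

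TEAD factors bind the hexamer GGAATG, whose reverse complement is CATTCC. RefSeq promoter windows (GRCm38.p6) reach from 250 bases before to 50 bases after an annotated start, and 7 of the 9 genes were matched by symbol to a window; Tead1 and Thbs1 were not. All 7 genes had the hexamer, searched on both strands, in a window. It lay in 14.7% of all 32851 windows, in 16.6% of the 27025 genes with a window, and in 13.9% of the 8110 such genes measured in the pulldown. Among related genes, it lay in 3 of 16 Hippo kinases and scaffolds, in 6 of 13 other TEAD and YAP partners, and in 3 of 19 other YAP-TEAD targets, among them Ccn1. These are matches of letters and do not show that a factor binds there. The stretches of 40 bases around each match are shown for context. Only the hexamer was searched for, and the bases on either side of it were not compared between genes. Each is printed 5′ to 3′ on the strand of the gene, with the hexamer in capitals.

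Yap1 (chr9:8004715-8004754, minus strand, first base of the hexamer 141 bases before the start): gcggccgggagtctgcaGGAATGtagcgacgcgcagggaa
Wwtr1 (chr3:57576024-57576063, minus strand, 136 and 170 bases before the starts of its 2 overlapping windows): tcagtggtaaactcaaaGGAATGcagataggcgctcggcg
Lats2 (chr14:57746097-57746136, minus strand, 4 bases after the start): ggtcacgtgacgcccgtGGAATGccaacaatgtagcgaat
Amotl2 (chr9:102717722-102717761, plus strand, 65 bases before the start): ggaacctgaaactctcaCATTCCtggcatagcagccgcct
Ajuba, first match (chr14:54577825-54577864, minus strand, 186 bases before the start): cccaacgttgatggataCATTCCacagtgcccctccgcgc
Ajuba, second match (chr14:54577803-54577842, minus strand, 164 bases before the start): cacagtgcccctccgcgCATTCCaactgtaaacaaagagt
Ankrd1, first match (chr19:36120032-36120071, minus strand, 210 bases before the start): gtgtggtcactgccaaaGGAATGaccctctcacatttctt
Ankrd1, second match (chr19:36119945-36119984, minus strand, 123 bases before the start): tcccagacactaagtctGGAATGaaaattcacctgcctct
Axl (chr7:25788944-25788983, minus strand, 233 bases before the start): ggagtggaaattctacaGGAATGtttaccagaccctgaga

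Lats2 has another window, at a start farther inside the gene, with 0 matches. Ajuba and Ankrd1 each held 2 matches. In the pulldown comparison of the states, Ankrd1 had the highest and Ajuba the lowest ratio of the 9 genes. Whether the number of matches goes with these ratios was not tested, and Tead1 and Thbs1 had no window. The whole promoter window of Ankrd1, the gene with the highest ratio, is given for its context (chr19:36119795-36120094, minus strand, 54.7% G and C, matches in capitals).

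Ankrd1: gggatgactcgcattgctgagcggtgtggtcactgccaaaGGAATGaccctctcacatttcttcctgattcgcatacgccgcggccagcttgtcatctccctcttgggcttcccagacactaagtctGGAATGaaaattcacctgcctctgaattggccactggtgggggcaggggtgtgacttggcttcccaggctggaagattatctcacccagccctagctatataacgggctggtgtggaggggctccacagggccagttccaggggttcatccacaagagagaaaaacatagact

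Levels are given as CPM. Ratios between the states were taken after TMM scaling, which assumes that most genes do not differ, with factors of 0.903 and 1.11 for the AF357425-High and AF357425-Low pulldowns and of 1.02 and 0.978 for whole-cell RNA. A ratio in the pulldown is therefore larger than the CPM values alone would give, and with library totals the median of all genes moved by -0.29 on the log2 scale. The call rule was that the counting interval had to lie entirely beyond 2-fold, on either side. The counting interval of a level was within 0.351% to 24.6% of the level itself.

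In the pulldown, the target genes Ankrd1 and Thbs1 were higher in AF357425-High by more than 2-fold, while none of the 9 genes passed that line in whole-cell RNA. The LATS regulator Ajuba lay furthest below 0 in the pulldown without passing the line. In numbers, 2 of 9 genes were called higher and 0 lower in the pulldown, where 3.43% of 10736 measured genes were called higher and 2.9% lower. In whole-cell RNA 0 of 9 were called in either direction, where 0.111% of 13519 genes were called higher and 0.133% lower. The median log2 ratio of the 9 genes was 0.38 in the pulldown, against -0.011 over all genes measured, and 0.089 in whole-cell RNA, against -0.009. In each kind of library 7 of the 9 ratios were positive, as were 49.2% of all ratios in the pulldown and 48.2% in whole-cell RNA. Because the members were chosen with earlier results of these data known, these counts and medians are descriptions and not a test. With library totals, Amotl2 turned negative in the pulldown (-0.21) and Ajuba positive in whole-cell RNA (0.002), and the signs of the other members stayed the same under each scaling tried. Both pulldown calls were lost with library totals (see the values of Ankrd1 and Thbs1), where the split over all genes was 238 higher and 608 lower, against 368 and 311 after TMM. In whole-cell RNA the split was 18 and 14 with library totals, against 15 and 18.

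**Figure D1:**
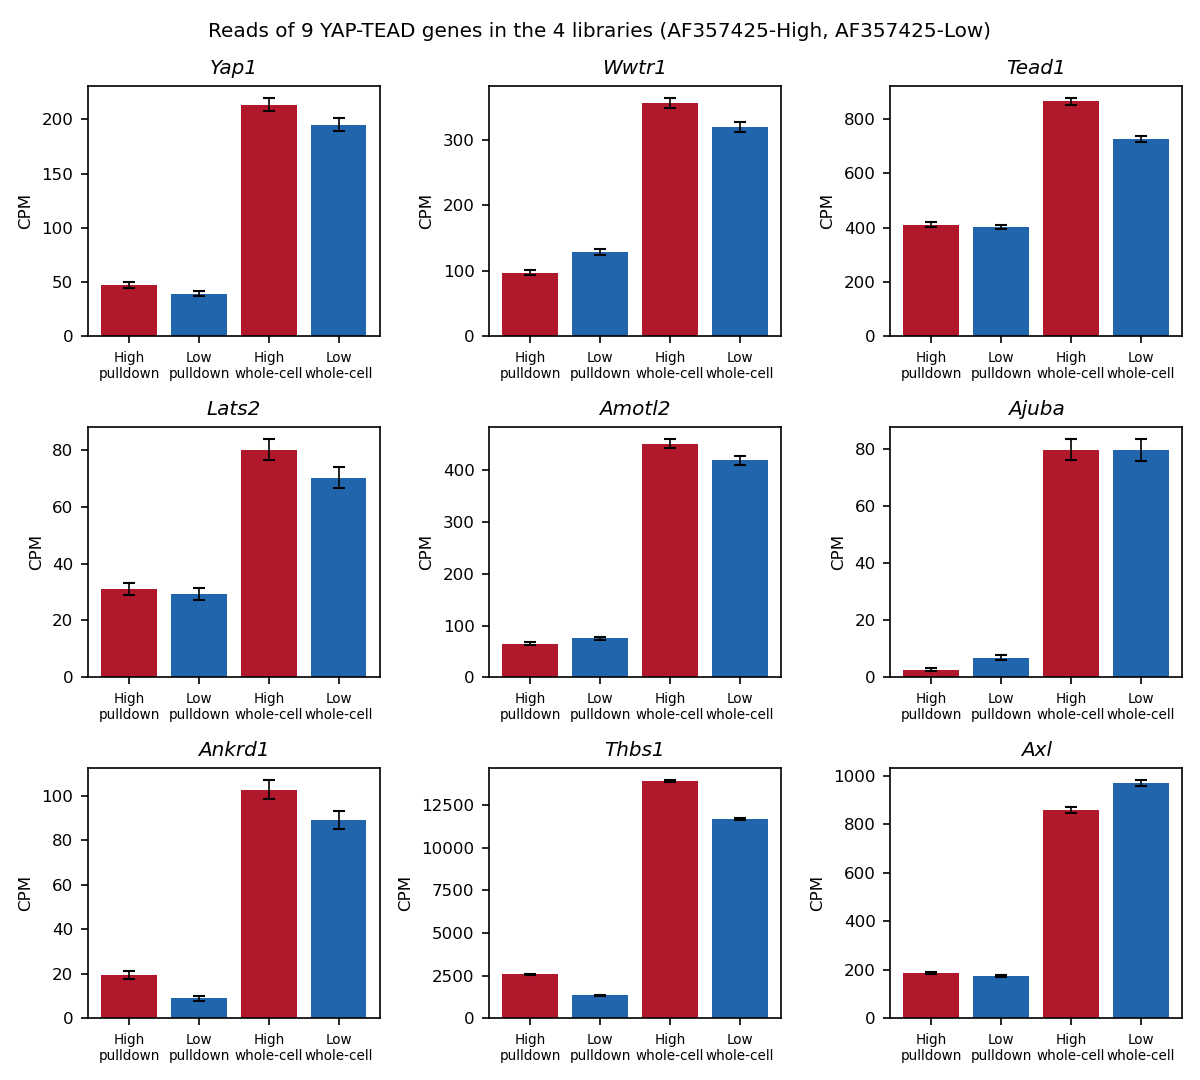
CPM of the 9 genes in the AF357425-High and AF357425-Low pulldowns and in whole-cell RNA of AF357425-High and of AF357425-Low (1 library each; bars start at 0 and have their own axis for each gene; error bars are exact 95% counting intervals). Every gene had a higher CPM in whole-cell RNA than in the pulldown, and Ankrd1 had 19.5 CPM in the AF357425-High pulldown, against 9.05 CPM in the AF357425-Low pulldown.

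Of the co-activators, Yap1 (ENSMUSG00000053110; GRCm38.p6 chromosome 9, 7931999 to 8004638) had 47.6 and 39.3 CPM in the AF357425-High and AF357425-Low pulldowns and 214 and 195 CPM in whole-cell RNA of AF357425-High and of AF357425-Low. Its level was higher in AF357425-High in both kinds of library. Its log2 ratio of AF357425-High over AF357425-Low was 0.57 (0.45 to 0.69) in the pulldown and 0.065 (0.004 to 0.12) in whole-cell RNA. Wwtr1 (ENSMUSG00000027803; chromosome 3, 57455644 to 57575910), which encodes the Yap1 relative TAZ, went the other way in the pulldown, with 96.7 CPM in AF357425-High, against 128 CPM in AF357425-Low. In whole-cell RNA it had 356 CPM in AF357425-High and 320.0 CPM in AF357425-Low. Its log2 ratio was -0.11 (-0.19 to -0.039) in the pulldown and 0.089 (0.042 to 0.14) in whole-cell RNA. The counting intervals of the co-activators thus lay on opposite sides of 0 in the pulldown and overlapped in whole-cell RNA. Both kept their sign under each scaling tried, with pulldown ratios from 0.28 to 0.57 for Yap1 and from -0.41 to -0.11 for Wwtr1. The span of Wwtr1 holds the pseudogene Gm16016, so its reads are less certain.

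Tead1 (ENSMUSG00000055320; chromosome 7, 112679356 to 112906784), the DNA-binding partner of both co-activators, had 411 and 401 CPM in the AF357425-High and AF357425-Low pulldowns. In whole-cell RNA it had 865 CPM in AF357425-High and 725 CPM in AF357425-Low. Its pulldown levels were close to each other, and its whole-cell level was higher in AF357425-High. The log2 ratio was 0.33 (0.29 to 0.37) in the pulldown, but 0.035 with library totals, and 0.19 (0.16 to 0.22) in whole-cell RNA. In whole-cell RNA 19.3% of genes had a higher ratio than Tead1.

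Of the regulators, Lats2 (ENSMUSG00000021959; chromosome 14, 57689662 to 57746212), a kinase that phosphorylates YAP1 and TAZ, had 31.1 and 29.3 CPM in the AF357425-High and AF357425-Low pulldowns and 80.1 and 70.3 CPM in whole-cell RNA of AF357425-High and of AF357425-Low. Its log2 ratios were 0.38 (0.24 to 0.52) in the pulldown, but 0.085 (-0.058 to 0.23) with library totals, and 0.12 (0.024 to 0.22) in whole-cell RNA. Its span overlaps the annotated genes Gm26440, a snoRNA, and Gm52140, so its counts are uncertain. Amotl2 (ENSMUSG00000032531; chromosome 9, 102717091 to 102733418), an angiomotin family member that binds YAP1 and holds it at junctions and actin, had 64.9 and 75.1 CPM in the AF357425-High and AF357425-Low pulldowns and 452 and 419.8 CPM in whole-cell RNA of AF357425-High and of AF357425-Low. With a log2 ratio of 0.084 (-0.009 to 0.18) in the pulldown, Amotl2 had an interval that held 0. In whole-cell RNA its ratio was 0.042 (0.00096 to 0.083).

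Ajuba (ENSMUSG00000022178; chromosome 14, 54567469 to 54577661) had 68 reads in the AF357425-High pulldown and 190 reads in the AF357425-Low pulldown, which are 2.63 CPM (2.04 to 3.33) and 6.83 CPM (5.89 to 7.87). In whole-cell RNA it had 79.7 CPM in AF357425-High and 79.6 CPM in AF357425-Low. The pulldown levels of the states did not overlap within counting error, and the whole-cell levels were nearly equal. Its log2 ratio in the pulldown was -1.08 (-1.50 to -0.67), and 6.37% of genes had a lower ratio. The interval reached inside 2-fold, so Ajuba was not called. At a line of 1.5-fold it was the only member called lower, where 843 of 10736 genes were called lower. In whole-cell RNA the ratio was -0.063 (-0.16 to 0.033). Among the 9 genes, Ajuba had the fewest reads in either pulldown library, and its values there have the widest counting intervals.

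**Figure D2:**
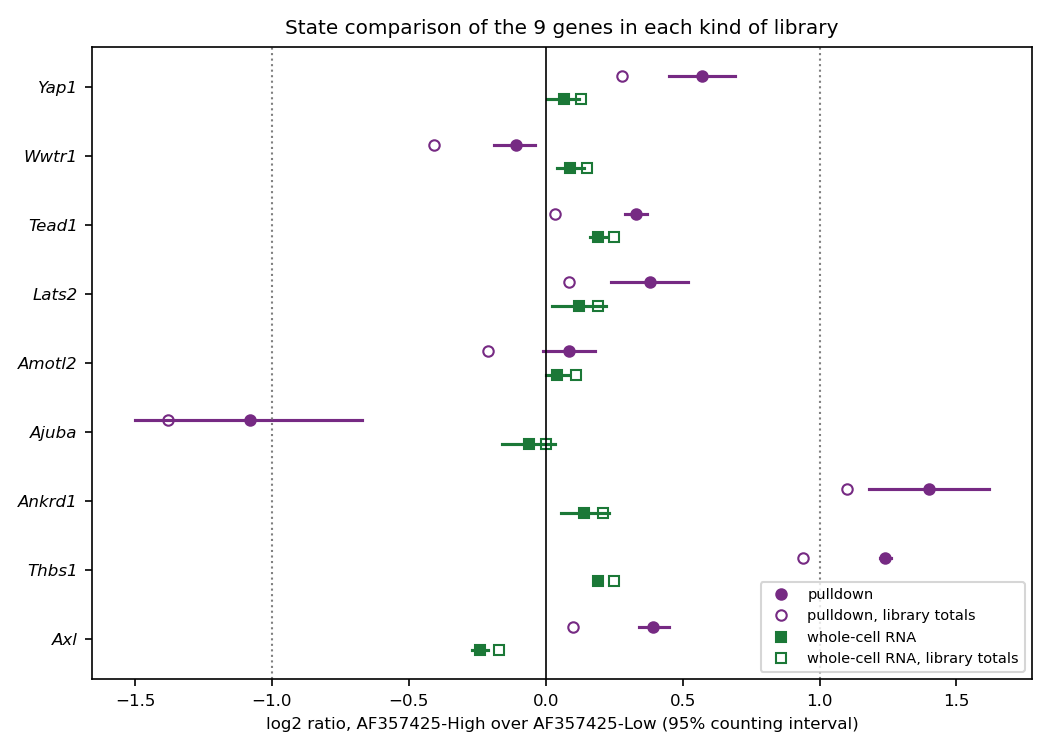
Log2 ratio of AF357425-High over AF357425-Low for the 9 genes (rows) in the pulldown (circles) and in whole-cell RNA (squares), with 95% counting intervals; filled marks are after TMM scaling and open marks with library totals, and dotted lines mark 2-fold. Ankrd1 at 1.40 and Thbs1 at 1.24 lie to the right of the line after TMM, Ajuba at -1.08 has an interval across it, and with library totals Amotl2 turns negative in the pulldown (-0.21) and Ajuba positive in whole-cell RNA (0.002).

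Of the target genes, Ankrd1 (ENSMUSG00000024803; chromosome 19, 36111965 to 36119844), which encodes a nuclear and sarcomeric ankyrin repeat protein widely used as a YAP readout, had 503 reads in the AF357425-High pulldown and 252 reads in the AF357425-Low pulldown. These are 19.5 CPM (17.8 to 21.2) and 9.05 CPM (7.97 to 10.2). In whole-cell RNA it had 103 CPM in AF357425-High and 89.1 CPM in AF357425-Low. The state difference was thus wider in the pulldown, where the log2 ratio was 1.40 (1.18 to 1.62), a 2.64-fold higher level, than in whole-cell RNA, where it was 0.14 (0.055 to 0.23). In the pulldown 3.62% of genes had a higher ratio. With library totals the pulldown ratio was 1.10 and was not called.

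Thbs1 (ENSMUSG00000040152; chromosome 2, 118111876 to 118127133), which encodes the secreted matrix protein thrombospondin 1, had 66745 reads in the AF357425-High pulldown and 37318 reads in the AF357425-Low pulldown. These are 2581 and 1341 CPM, and in whole-cell RNA it had 13930.4 CPM in AF357425-High and 11693 CPM in AF357425-Low. AF357425-High had the higher level in both kinds of library, with a log2 ratio of 1.24 (1.22 to 1.26) in the pulldown and 0.19 (0.18 to 0.20) in whole-cell RNA. In the pulldown 4.53% of genes had a higher ratio, and with library totals its ratio was 0.94 and was not called. By reads, Thbs1 ranked 11 and 18 among all genes in the AF357425-High and AF357425-Low pulldowns and 4 in both whole-cell libraries, and so it is itself a part of the totals. It took 0.258% and 0.134% of the pulldown reads, out of 0.344% and 0.220% for the 9 genes together, and 1.39% and 1.17% of the whole-cell reads, out of 1.69% and 1.46%.

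Axl (ENSMUSG00000002602; chromosome 7, 25756500 to 25788924), a receptor tyrosine kinase for the ligand GAS6, had 186 and 174 CPM in the AF357425-High and AF357425-Low pulldowns and 859 and 969 CPM in whole-cell RNA of AF357425-High and of AF357425-Low. It was the only member whose whole-cell interval lay below 0, with a log2 ratio of -0.24 (-0.27 to -0.21), and 18.2% of genes had a lower ratio. In the pulldown its ratio was 0.39 (0.34 to 0.45). The 3 targets therefore shared a positive sign in the pulldown under each scaling tried, and in whole-cell RNA Axl differed in sign from Ankrd1 and Thbs1.

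The difference between the states in the ratio of pulldown to whole-cell RNA, which sets the pulldown contrast of a gene against its whole-cell contrast, was called higher for 2 of 9 members and lower for 0. Of 11356 genes that reached 10 reads in every library, 2.65% were called higher and 1.66% lower, and the median was -0.00026. The called members were Ankrd1 at 1.25 (1.02 to 1.49) and Thbs1 at 1.05 (1.03 to 1.07). Both intervals began close to the line of 1. Neither gene was called with library totals (0.90 and 0.69), median-of-ratios scaling (1.22 and 1.01) or totals without the 20 most abundant genes (1.14 and 0.94). With library totals the split over all genes was 135 higher and 578 lower, and with totals without the 20 most abundant genes 231 and 273, against 301 and 189. Axl had 0.63 (0.57 to 0.70), Yap1 0.51 (0.38 to 0.64) and Ajuba -1.02 (-1.43 to -0.61), none of them called. With library totals these were 0.27, 0.15 and -1.38. Wwtr1 had -0.20 (-0.29 to -0.12). Lats2 (0.26), Tead1 (0.14) and Amotl2 (0.042) were positive after TMM but negative with library totals, and Amotl2 also with totals without the 20 most abundant genes.

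Within each state, the pulldown was set against whole-cell RNA with library totals as the scale. All 9 genes were called lower in the AF357425-High pulldown and 8 of 9 in the AF357425-Low pulldown, where 74.1% and 62.4% of all measured genes were called lower too. Mitochondrial ribosomal RNA took the shares of pulldown reads given above, and the position of a gene among all genes is therefore given beside its ratio. The median log2 ratio of pulldown over whole-cell RNA was -2.15 over all genes in AF357425-High and -1.75 in AF357425-Low, and the 9 genes had medians of -2.21 and -2.48. Tead1 was the highest of the 9 in both states, with -1.07 (-1.11 to -1.04) in AF357425-High and -0.85 (-0.89 to -0.82) in AF357425-Low. Under the other 3 scalings tried, the ratios of Tead1 and Lats2 were positive in both states, and that of Wwtr1 was positive in AF357425-Low under 2 of them. Ajuba was the lowest in both, with -4.92 (-5.29 to -4.57) and -3.54 (-3.77 to -3.33). Within AF357425-High, 5.63% of genes had a lower ratio than Ajuba, and within AF357425-Low 14.3% had.

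The position of several members among all genes differed between the states. Against the median of all genes, Ankrd1 stood at -0.25 in AF357425-High and at -1.55 in AF357425-Low, and Thbs1 at -0.28 and -1.38, on the log2 scale. In AF357425-High both were close to the middle, with 43.3% and 42.4% of genes lower, while in AF357425-Low 17.7% and 20.5% of genes were lower. Axl stood at -0.057 in AF357425-High and -0.73 in AF357425-Low, and Yap1 at -0.016 and -0.57. Ajuba lay farther below the median in AF357425-High (-2.77) than in AF357425-Low (-1.80). The other members differed less between the states: Tead1 had 1.08 and 0.89, Lats2 0.79 and 0.49, Wwtr1 0.27 and 0.43, and Amotl2 -0.65 and -0.73. These comparisons reuse the same libraries as the state comparisons and are not separate support for them.

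Members with longer genomic spans had higher ratios of pulldown to whole-cell RNA. The genes with the longest spans, Tead1 (227 kb) and Wwtr1 (120 kb), were among the 3 highest in both states, and those with the shortest, Ankrd1 (7.88 kb) and Ajuba (10.2 kb), were the 2 lowest in AF357425-Low. Across the 9 genes the Spearman correlation of span and log2 ratio was 0.83 in AF357425-High and 0.93 in AF357425-Low. Across 11030 and 11103 protein-coding genes it was 0.24 and 0.27. These are descriptions over genes that share their libraries and are not independent replicates. Over all protein-coding genes the median ratio was -2.73 in AF357425-High and -2.46 in AF357425-Low for spans under 10 kb, and -1.73 and -1.32 for spans of 200 kb or more. Within its span class, Ajuba lay below the lower quartile in both states, by -2.63 and -1.57 against the class median. Thbs1 and Yap1 lay below the lower quartile of their class in AF357425-Low only, by -1.15 and -1.06. The share of ambiguous fragments was larger in the pulldowns, as given above, and its part in these ratios was not tested.

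**Figure D3:**
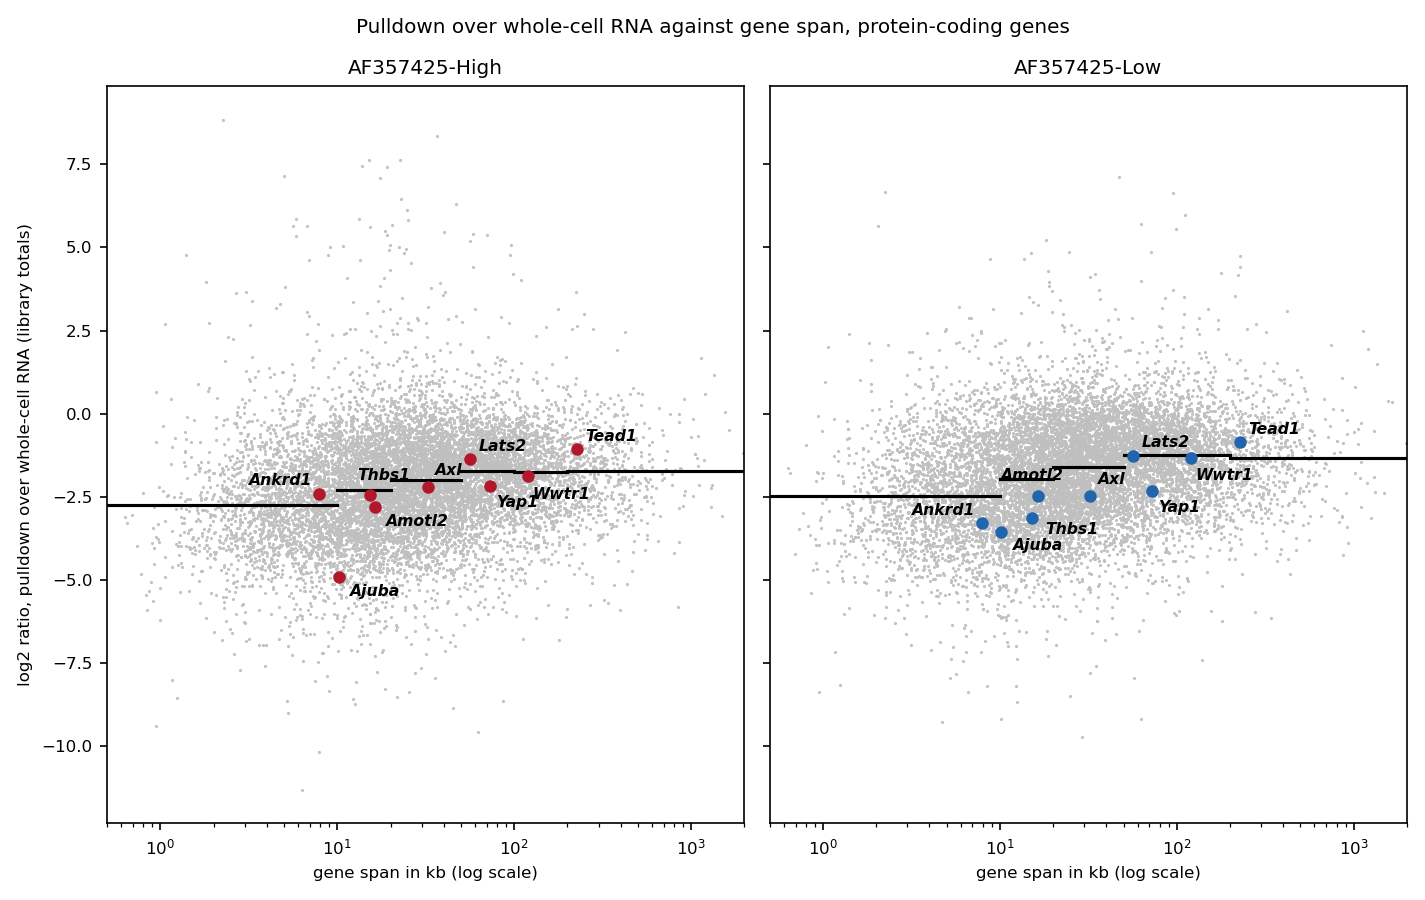
Log2 ratio of pulldown over whole-cell RNA by library totals (vertical axis) against the genomic span of each protein-coding gene in kb (horizontal log axis), in AF357425-High and AF357425-Low; grey points are single genes, black lines the medians of 6 span classes, and coloured points the 9 members. Tead1, with the longest span, is the highest member in both states (-1.07 and -0.85), and Ajuba the lowest (-4.92 and -3.54).

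The wider pathway was described by 3 lists. Of 19 Hippo kinases and scaffolds, 17 were measured in the pulldown and 18 in whole-cell RNA, and 0 were called in either. The median log2 ratio was 0.084 in the pulldown, with 10 of 17 positive, and 0.086 in whole-cell RNA, with 13 of 18 positive. With library totals the pulldown median was -0.21, against -0.31 for all genes, with 3 of 17 positive. The whole-cell median was then 0.15, against 0.056 for all genes, with 15 of 18 positive. The kinase Taok3 had the highest pulldown ratio, 0.79 (0.64 to 0.95), but -0.26 (-0.40 to -0.12) in whole-cell RNA, the lowest of the list there. The tumour suppressor gene Rassf1 had 0.53 (0.024 to 1.03) in the pulldown and 0.25 (0.14 to 0.35) in whole-cell RNA, on 72 reads in the AF357425-High pulldown and 66 reads in the AF357425-Low pulldown. The MST scaffold Sav1 was the highest in whole-cell RNA at 0.26 (0.17 to 0.35), and the merlin gene Nf2 was at -0.14 (-0.23 to -0.059). The kinase adaptor Mob1b and the scaffold Wwc1 (KIBRA) were the lowest in the pulldown, at -0.35 (-0.45 to -0.25) and -0.37 (-0.71 to -0.036).

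Of 20 other TEADs, VGLL cofactors and YAP or TAZ binding proteins, 17 were measured in each kind of library and 0 were called. Tead3, Vgll1 and Vgll2 were below the minimum level. The median was -0.15 in the pulldown, with 12 of 17 negative, and -0.022 in whole-cell RNA, with 10 of 17 negative. With library totals the pulldown median was -0.44, against -0.31 for all genes, with 2 of 17 positive. The whole-cell median was then 0.043, against 0.056 for all genes, with 12 of 17 positive. It was also positive with median-of-ratios scaling (0.003, against 0.016) and with totals without the 20 most abundant genes (0.012, against 0.025). The Tead1 relative Tead4 had the lowest pulldown ratio, -1.02 (-1.80 to -0.29), on 22 reads in AF357425-High and 59 reads in AF357425-Low. The junction protein gene Tjp1 was the lowest in whole-cell RNA, at -0.49 (-0.55 to -0.42), and in the pulldown it had -0.17 (-0.26 to -0.087). The phosphatases Ptpn11 and Ptpn14, which bind YAP or TAZ, were the highest in the pulldown at 0.48 (0.41 to 0.54) and 0.45 (0.37 to 0.52). Wtip, a relative of Ajuba, had the highest whole-cell ratio, 0.30 (0.12 to 0.49), and the zinc finger factor Trps1, which binds YAP1, had 0.18 (0.073 to 0.29) there.

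Of 30 other YAP-TEAD targets, 28 were measured in the pulldown and 29 in whole-cell RNA, and 0 were called in the state comparison of either. The median was 0.043 in the pulldown, with 16 of 28 positive, and -0.091 in whole-cell RNA, with 20 of 29 negative. The median of the list turned negative in the pulldown with library totals (-0.25, against -0.31 for all genes). It was also negative with totals without the 20 most abundant genes (-0.035, against -0.089 for all genes). Arhgef17, which encodes a guanine nucleotide exchange factor, had the highest pulldown ratio, 1.07 (0.98 to 1.16), and -0.074 (-0.12 to -0.024) in whole-cell RNA. It was called in the difference between the states in the ratio of pulldown to whole-cell RNA, at 1.14 (1.04 to 1.25), but not with library totals (0.78) or with totals without the 20 most abundant genes (1.03).

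Ccn2, the matricellular growth factor gene also known as Ctgf, had 0.40 (0.36 to 0.44) in the pulldown and 0.23 (0.21 to 0.25) in whole-cell RNA, and the tissue factor gene F3 had 0.32 (0.23 to 0.41) and 0.24 (0.17 to 0.30). After TMM both thus lay above 0 in both kinds of library. With library totals the pulldown ratios were 0.11 for Ccn2 and 0.025 for F3, and the whole-cell ratios were 0.30 for each. Cyclin D1 (Ccnd1), at -0.55 (-0.58 to -0.52), and survivin (Birc5), at -0.48 (-0.73 to -0.24), were the lowest targets in whole-cell RNA. Gadd45a, a DNA damage response gene, at -0.66 (-0.88 to -0.45), and Fjx1, at -0.92 (-1.75 to -0.15), were the lowest in the pulldown. The ratio of Fjx1 rests on 20 reads in the AF357425-High pulldown and 50 reads in the AF357425-Low pulldown. Ccn2, Gadd45a, Sav1, Mob1b, Rassf1, Ptpn14, Trps1, Arhgef17 and Ccnd1 share part of their span with another annotated gene, and their counts are uncertain to that extent.

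**Figure D4:**
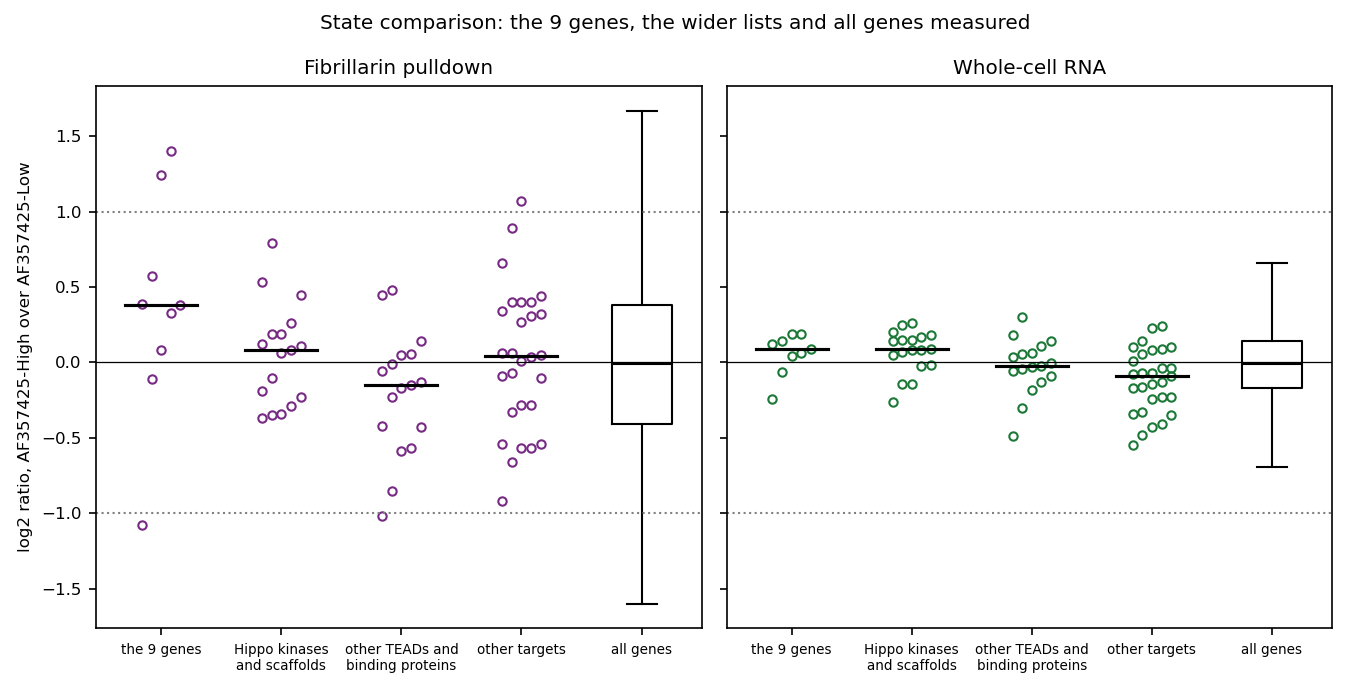
Log2 ratio of AF357425-High over AF357425-Low in the pulldown and in whole-cell RNA for the 9 genes and the 3 wider lists (each circle a gene, bars the medians), beside a box of all genes measured (quartiles, with whiskers over the central 95% of genes); dotted lines mark 2-fold. After TMM scaling, the 9 genes have a pulldown median of 0.38 and the other targets 0.043. With library totals the other targets have -0.25, against -0.31 for all genes, and the ratio of each of the 9 genes is lower too. With totals without the 20 most abundant genes the other targets have -0.035, against -0.089 for all genes.

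For each member, the gene with the most similar pattern over the 4 libraries was sought among 6838 genes that reached 100 reads in every library, by the root mean square difference of centred log2 CPM. For Ankrd1 it was Tnfrsf26 (0.066) and for Thbs1 it was Slc39a14 (0.067). Ankrd1 and Thbs1 were next in line for each other, at 0.068, with 1 gene nearer in each case. The nearest genes were Naa20 for Yap1 (0.028), Cyth3 for Wwtr1 (0.015), Klhl42 for Tead1 (0.016), Lsm12 for Lats2 (0.008), Mavs for Amotl2 (0.023) and Mrpl13 for Axl (0.031). Apart from Ankrd1 and Thbs1, each of these members had at least 197 genes nearer to it than the most similar other member. Ajuba was below the read minimum. The likeness rests on 4 libraries and is a description only.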

How the data were processed

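The deposited values are raw counts: whole numbers of fragments for each gene, followed by HTSeq summary lines, with a separate table for whole-cell RNA and for the pulldown. Per the submitters' processing notes, cutadapt 2.4, STAR 2.6.0c, HTSeq 0.9.1 and StringTie 1.3.4 were used with GRCm38. The sources used here do not name the annotation or the strand option.

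Summary lines were left out of gene values. Symbols were paired with 55450 gene IDs. A gene counted as measured when its CPM, averaged over the libraries of a comparison, reached 1. TMM factors came from edgeR 4.0.16 (R 4.3.3). Ratios have exact (Clopper-Pearson) 95% intervals from the counts, or, where all 4 libraries enter, approximate normal intervals of the log ratio, with 10 reads or more in each. The labels name no molecular identifiers, so reads may be PCR copies and intervals cover counting error only. Every comparison was computed on the whole gene table.

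The members and lists were chosen with earlier results of these data known. Named genes were all members, list genes called, the 2 highest and 2 lowest of each list in each kind of library, and the nearest pattern to each member; some genes that this rule names are not reported here. Promoter windows and spans are from RefSeq (GRCm38.p6).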

Additional observations from a re-analysis of the deposited data

Results flagged for a closer look

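These genes had counting intervals on opposite sides of 0 in the pulldown and in whole-cell RNA for AF357425-High against AF357425-Low; with 1 library in each group, the difference was not tested. Among the 9 genes, Axl had 0.39 (0.34 to 0.45) in the pulldown and -0.24 (-0.27 to -0.21) in whole-cell RNA, a change of 0.63, and Wwtr1 had -0.11 (-0.19 to -0.039) and 0.089 (0.042 to 0.14), a change of -0.20. Both kept these signs under each scaling tried.

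Among the named genes of the wider lists, Arhgef17 had 1.07 in the pulldown and -0.074 in whole-cell RNA, a change of 1.14, and Taok3 0.79 and -0.26, a change of 1.05. Ccnd1 had 0.27 and -0.55, a change of 0.82, with a pulldown ratio of -0.021 under library totals. Ptpn14 had 0.45 and -0.093, a change of 0.54. Under library totals the whole-cell ratio was -0.009 for Arhgef17 and -0.028 for Ptpn14. In the other direction, Trps1 had -0.59 and 0.18, a change of -0.77, Wwc1 -0.37 and 0.20, a change of -0.57, and Mob1b -0.35 and 0.18, a change of -0.53.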

How the results depend on the processing

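No paired analysis was possible because each group has 1 library. In whole-cell RNA 0 members were called under all 7 alternatives. In the pulldown, 0 members were called with library totals, 3 at a line of 1.5-fold and 2 otherwise. At the line of 1.5-fold, 828 genes were called higher and 843 lower there, 15.6% of 10736. The difference between the states in the ratio of pulldown to whole-cell RNA had 2 called members in the main comparison. It had 0 with library totals, with median-of-ratios scaling and with totals without the 20 most abundant genes. The wider lists had 0 called genes in either kind of library under each scaling and with a minimum average of 5 CPM. The cause was not tested.

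The pulldown against whole-cell calls depended on the scaling. In AF357425-High, 9 members were called by library totals, 1 after TMM, 2 without mt-Rnr1 and mt-Rnr2 and 2 without the 20 most abundant genes. In AF357425-Low these were 8, 4, 5 and 5. In the same order, the genes called higher and lower over the whole table were 308 and 9459, 1682 and 2884, 1065 and 4149, and 1291 and 3564 in AF357425-High. In AF357425-Low they were 330 and 7965, 1731 and 3365, 1508 and 3651, and 1613 and 3509. In AF357425-High, Tead1 turned positive after TMM (0.77), without mt-Rnr1 and mt-Rnr2 (0.38) and without the 20 most abundant genes (0.54), as did Lats2 (0.48, 0.086 and 0.25). In AF357425-Low, Tead1 (0.57, 0.46 and 0.51), Lats2 (0.17, 0.053 and 0.10) and, after TMM and without the 20 most abundant genes, Wwtr1 (0.11 and 0.046) did. These scalings moved the median of all genes by 1.31 to 1.84. Of 135 member ratios recomputed under another scaling, 20 had the other sign: 6 and 8 in the pulldown against whole-cell RNA of AF357425-High and of AF357425-Low, 4 in the difference between the states in that ratio, and 1 each in the pulldown and the whole-cell comparison of the states. The filters and call lines tried leave a gene's ratio as it is. Depth limits Ajuba most, with 68 and 190 reads in the pulldowns.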
